A study of Megathyrsus maximus with 33 samples.

Results

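The transcript c92038_g1 of Guinea grass (Megathyrsus maximus, also named Panicum maximum), whose closest Arabidopsis match is the cytochrome P450 CYP71A23, was described in 4 treatments, at 2 time points and in 16 field plots. It is 1 of 39208 transcripts in the deposited log2 table and was taken by its identifier because the study had named it. That naming rested on values in part of the same libraries, as described below. The plots were exposed to elevated CO2 with warming (eCeT), to warming alone (eT), to elevated CO2 alone (eC) or to neither (C). CO2 was raised to 600 ppm by free-air enrichment over open plots, and infrared heaters were set to warm the canopy by 2 °C. The study's conclusion names a smaller rise. RNA was sequenced from young, fully expanded leaves of 4 plots per treatment, 50 days (time point B) and 30 days (time point A) into treatment, which gave 32 libraries. All groups were of the same species in the same field, and by their labels each treatment had 1 plot in each of 4 rings. Several leaves of a plot, with all their cell types, were pooled for each library, so that fewer cells of a type and less RNA per cell cannot be told apart.

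Cytochrome P450 enzymes are haem proteins, mostly anchored in the endoplasmic reticulum of plant cells, that insert an oxygen atom into small molecules with electrons passed on by a reductase. The CYP71 family is large in plants, and its characterised members act mainly in specialised metabolism, including the making of defence compounds and the modification of terpenes and other small molecules. The activity of c92038_g1 itself was not measured, and its name rests on sequence likeness to an Arabidopsis protein. Sequences of the assembly were not used here, so neither the transcript nor its protein is shown. The study annotated c92038_g1, c76852_g4 and c71466_g3 with the same maize protein, so reads from close gene copies could have been split among the 3 transcripts and the level of each is uncertain to that extent.

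Levels are given as log2 CPM, the reads of a transcript per 1e6 reads of the scaled library, as the authors computed them, with the number of reads recovered from those values beside them. The study drew attention to c92038_g1 through the time point A libraries, where it was among the transcripts that differed between eCeT and C and was related to a sugar in the same leaves. Its levels at time point A, and each difference that uses them within a treatment, are therefore a description with no test. Time point B had no part in that choice, and its comparisons were tested.

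The 32 libraries held between 6148491 and 15638548 recovered reads, with a median of 11445787. The transcript was counted in all 32 libraries, with 679 reads in the 16 libraries of time point B and 1147 in the 16 of time point A. It had between 20 and 96 reads per library at time point B and between 9 and 417 at time point A. The lowest of these counts, 9 reads in the eT plot of ring 3 at time point A, had an exact Poisson 95% interval of 4.12 to 17.1 reads, and the highest, 417 in the C plot of ring 2 at time point A, of 378 to 459 reads. These intervals cover counting error only. At time point A the spread between C plots (SD 1.03 on the log2 scale) was larger than the spread that counting gives (0.148), whereas in eCeT plots the 2 values lay closer together, at 0.383 and 0.322.

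At time point B the levels of c92038_g1 overlapped in all 4 treatments. In eCeT plots the log2 level was 1.45, 1.48, 2.04 and 1.69 in rings 1 to 4 (32, 35, 47 and 25 reads). In eT plots it was 1.32, 1.89, 1.23 and 1.58 (29, 47, 24 and 49 reads). The levels of the 2 warmed treatments overlapped, and only the eCeT plot of ring 3 lay above every eT plot. The eC plots had 1.19, 2.43, 2.39 and 1.15 (35, 96, 60 and 26 reads), against 2.34, 1.79, 1.13 and 2.05 (68, 39, 20 and 47 reads) in C plots. The eC plots were split, with rings 2 and 3 above every C plot and rings 1 and 4 near the lowest C plot. The group means were 1.67 ± 0.27 in eCeT, 1.50 ± 0.30 in eT, 1.79 ± 0.72 in eC and 1.83 ± 0.51 in C (SD, n = 4 plots each), and the highest and lowest mean lay 0.32 apart, less than the SD of 0.48 pooled over the groups.

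No treatment difference of c92038_g1 at time point B was larger than the spread between plots. The log2 difference was -0.16 for eCeT minus C (SE 0.44, 95% interval -1.05 to 0.73; limma, Benjamini-Hochberg adjusted p = 0.935). It was -0.32 for eT minus C (95% interval -1.21 to 0.56; limma, adjusted p = 0.928) and -0.038 for eC minus C (95% interval -0.93 to 0.85; limma, adjusted p = 0.992). Exact two-sided permutation tests on the same plots, for which 0.0286 is the smallest possible p, gave p = 0.571 for eCeT, 0.314 for eT and 1.0 for eC, n = 4 against 4. The intervals for eCeT and eT reached below -1, so they did not exclude a level lower by 1 log2 unit. They use 1 spread estimated over both time points. The pooled SD within groups was 0.48 at time point B and 0.82 at time point A. Intervals from the time point B plots alone may therefore be narrower.

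The same held when the plots were pooled by factor. The 8 warmed plots averaged 1.59 and the 8 plots that were not warmed 1.81 at time point B, a log2 difference of -0.22 (SE 0.31, 95% interval -0.85 to 0.40; limma, adjusted p = 0.946; exact two-sided permutation p = 0.332). Between elevated and ambient CO2 the means were 1.73 and 1.67, a difference of 0.062 (SE 0.31; limma, adjusted p = 0.981; exact two-sided permutation p = 0.790). The interaction of warming and CO2 was 0.20 (SE 0.62; limma, adjusted p = 0.984). Of all 39208 transcripts, 37.4% had a difference as low as or lower than that of c92038_g1 for eCeT minus C at time point B, and 21.8% for eT minus C, which places it inside the bulk of transcripts in both comparisons.

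**Figure D1:**
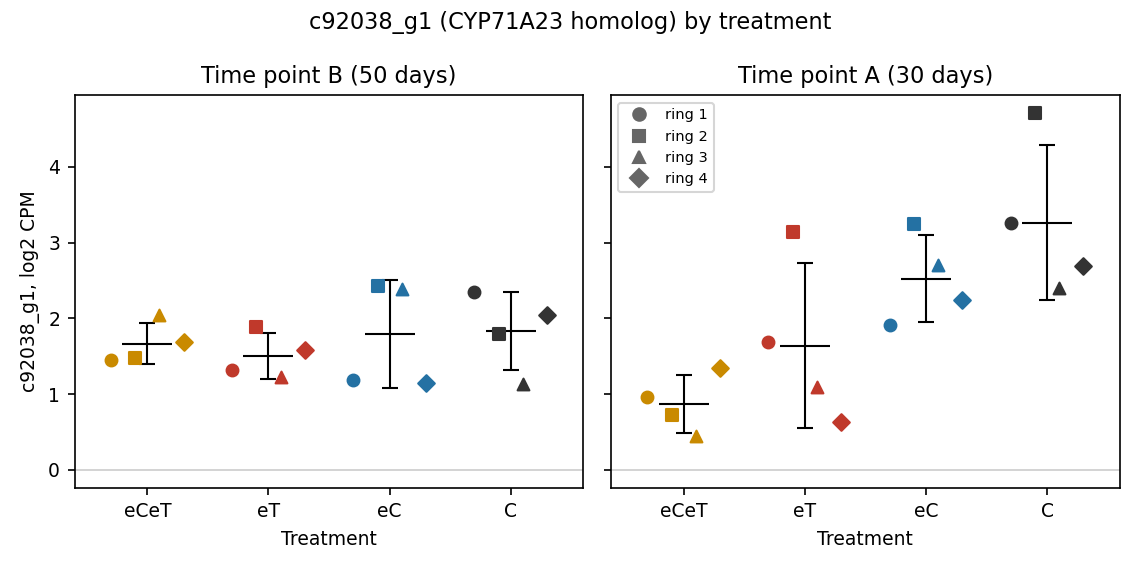
The log2 level of c92038_g1 (log2 CPM) is plotted for each plot by treatment, with time point B in the left panel and time point A in the right. Symbols mark the rings, and bars give the mean and SD of 4 plots. The group means spanned 0.32 at time point B and 2.39 at time point A.

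At time point A, 30 days into treatment, the levels were graded, lowest in eCeT, then eT, then eC, and highest in C. The log2 level was 0.96, 0.72, 0.45 and 1.35 in eCeT plots of rings 1 to 4 (25, 19, 13 and 34 reads). It was 1.69, 3.14, 1.10 and 0.64 in eT plots (32, 107, 9 and 14 reads). The eT plots were far apart, with ring 2 alone as high as the C plots and rings 3 and 4 within the range of eCeT. In eC plots the level was 1.91, 3.24, 2.71 and 2.25 (42, 79, 60 and 38 reads), and in C plots it was 3.25, 4.71, 2.40 and 2.70 (129, 417, 55 and 74 reads). The highest eCeT plot was lower than the lowest C plot and the lowest eC plot. Among all transcripts, 3.81% showed such a gap between the 4 eCeT and the 4 C plots, and 3.43% between the 4 eCeT and the 4 eC plots.

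The means at time point A were 0.87 ± 0.38 in eCeT, 1.64 ± 1.09 in eT, 2.53 ± 0.58 in eC and 3.27 ± 1.03 in C (SD, n = 4 plots each). Neighbours in this order stood 0.77 apart for eCeT and eT, 0.89 apart for eT and eC, and 0.74 apart for eC and C, while the pooled SD between plots was 0.82. The plots of each neighbouring pair overlapped, and of the 3 steps only that between eT and eC was slightly larger than this SD. The ends of the order did not overlap. On the linear scale the eCeT mean was 1.84 ± 0.514 CPM and the C mean 11.8 ± 9.71 CPM, and in the FPKM table, which is per length, eCeT plots had 3.13 ± 1.14 FPKM (n = 4) and C plots 21.6 ± 16.7 FPKM (n = 3).

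As a description, the log2 difference at time point A was -2.39 for eCeT minus C (SE 0.44, 95% interval -3.28 to -1.51), which is 0.190 of the C level. It was -1.62 for eT minus C (95% interval -2.51 to -0.74) and -0.74 for eC minus C (95% interval -1.63 to 0.15), and all 3 differences share the same C plots. The SEs and intervals use 1 spread over both time points, and plots differed less at time point B. They may therefore be too narrow for time point A. Averaged over CO2 levels, the difference between warmed plots and plots that were not warmed was -1.64 (SE 0.31), and averaged over temperatures the difference between elevated and ambient CO2 was -0.75 (SE 0.31). The interaction term was -0.031 (SE 0.62), and its sign was not stable, with -0.51 without C replicate 2 at time point A, 0.47 without eT replicate 2 at time point A, 0.59 without TMM scaling of the libraries and 0.45 in FPKM with a pseudocount of 1. Only 0.212% of all transcripts had a difference as low or lower for eCeT minus C, a contrast from which the transcript had been picked.

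A single C library weighed on these values. The C plot of ring 2 held 417 of the 675 C reads of c92038_g1 at time point A, or 61.8%. Without C replicate 2 at time point A, the difference was -1.91 for eCeT, -1.14 for eT and -0.26 for eC. Ring 2 also gave the highest plot in eT and eC at this time point, so that its mean over 4 treatments was 2.95, against 1.66 to 1.96 in the other rings. In ring 2 of eCeT the level was 0.72, within the range of the other eCeT plots.

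Compared within rings, eCeT was lower than C at time point A in 4 of 4 rings, with differences of -2.29, -3.99, -1.95 and -1.35 in rings 1 to 4. In eT the level was lower than in C in 4 of 4 rings as well, with differences of -1.56, -1.57, -1.30 and -2.06. The within-ring difference of eT was thus even across rings although the eT levels were far apart. In eC it was lower than in C in 3 of 4 rings, with differences of -1.34, -1.47, 0.31 and -0.45. At time point B the level was lower in eCeT than in C in 3 of 4 rings, with differences of -0.89, -0.31, 0.91 and -0.35, and lower in eT in 2 of 4, with differences of -1.03, 0.10, 0.10 and -0.47.

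**Figure D2:**
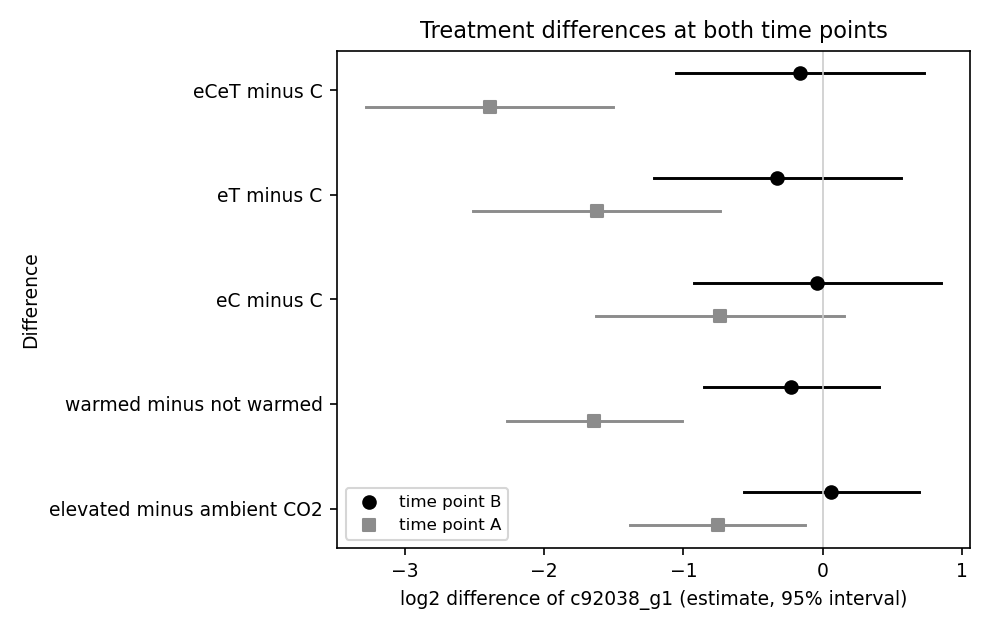
Log2 differences of c92038_g1 between treatments with their 95% intervals from the model over 32 libraries, time point B as black circles and time point A as grey squares. At time point B every interval held 0, and at time point A the eCeT difference was -2.39; the time point A values are a description.

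Between time points, c92038_g1 differed in opposite directions in the combined treatment and in the control. In eCeT plots the level was higher at time point B than at time point A in 4 of 4 plots, by 0.49, 0.76, 1.59 and 0.34 in rings 1 to 4, a mean of 0.79 (SE 0.44). In C plots it was lower at time point B in 4 of 4 plots, with differences of -0.91, -2.92, -1.26 and -0.65, a mean of -1.44 (SE 0.44). In eC plots it was also lower in 4 of 4, with differences of -0.72, -0.81, -0.31 and -1.10, a mean of -0.74 (SE 0.44). The eT plots were divided, with differences of -0.37, -1.24, 0.13 and 0.94 and a mean of -0.14 (SE 0.44). The SE of 0.44 is that of the model with 8 groups, which does not use the pairing of a plot's libraries. The SD of the paired differences themselves was 0.56 in eCeT, 1.02 in C, 0.32 in eC and 0.92 in eT (n = 4 plots each). The mean in eT turned to 0.36 without eT replicate 2 at time point A, and the mean in C was -0.95 without C replicate 2 at time point A. The mean in eCeT was 0.39 in FPKM with a pseudocount of 1, and without TMM scaling the means in eC and eT were -0.31 and 0.018.

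Of all transcripts, 13.3% were higher at time point B in all 4 eCeT plots and 12.1% were lower in all 4 C plots, while 0.296% did both and 0.0663% were in addition lower in all 4 eC plots. The difference eCeT minus C was 2.23 log2 units higher at time point B than at time point A (SE 0.62, 95% interval 0.97 to 3.49). For warming the corresponding value was 1.42 (SE 0.44). Both values, and the shares, rest on the time point A levels and carry no test. The transcript was chosen for a low eCeT level against C at time point A, which favours opposite changes in these 2 treatments. The shares can therefore not be read as a measure of how rare it is.

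Averaged over the 4 treatments, the change between time points did not pass the test. The 16 plots had a mean level of 1.70 at time point B and 2.08 at time point A, a difference of -0.38 (SE 0.22, 95% interval -0.82 to 0.07; limma, adjusted p = 0.178), with 10 of 16 plots lower and 6 higher at time point B. An exact sign-flip permutation test over the 16 plots gave a two-sided p = 0.185. The SD of the 16 differences it used was 1.08, which holds the opposite changes of the treatments as well as the spread between like plots. Without eT replicate 4 at time point A the difference was -0.46 and passed the threshold of 0.1 (limma, adjusted p = 0.088). This contrast is not free of the choice of the transcript, since it includes the time point A libraries. The range over all 16 plots was 1.30 log2 units at time point B and 4.26 at time point A. The sources give different calendar dates for time point B, so the days between the time points are not certain, and season and length of treatment cannot be told apart.

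**Figure D3:**
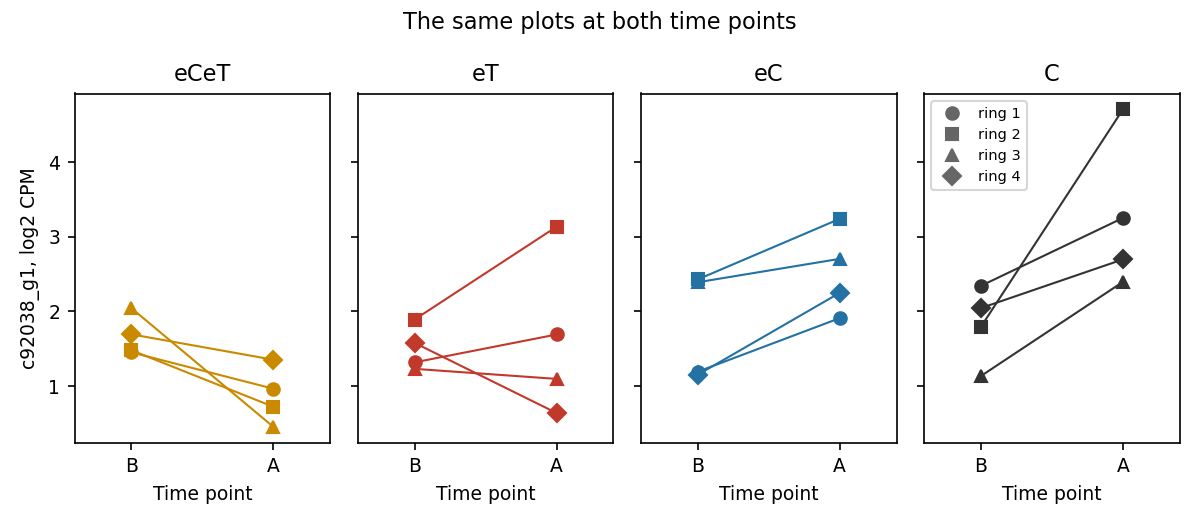
The log2 level of c92038_g1 in each plot, with time point B left of time point A in each panel and 1 line per plot; symbols mark the rings. The 4 eCeT plots were higher at time point B, the 4 eC and the 4 C plots were lower, and the eT plots were divided 2 and 2.

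The other cytochrome P450 transcripts that the study annotated among those it found changed at time point A were 6 in number, and they were set beside c92038_g1. The list was chosen by the study on time point A libraries, so its levels there are a description too. At time point A the log2 difference eCeT minus C was -2.55 for c76852_g4 (match CYP71B13) and -2.72 for c71466_g3 (CYP71B11), the pair that shares its maize match with c92038_g1. It was also negative for c82144_g1 (CYP76C2, known in Arabidopsis to oxidise the terpene alcohol linalool), at -1.95. The remaining 3 went the other way, with 2.44 for c78858_g1 (CYP76G1), 3.15 for c84097_g3 (a weak match to CYP71B25, with 25 reads over the 4 eCeT plots and 1 over the 4 C plots) and 2.27 for c92299_g1 (CYP79B2 or CYP79B3, which in Arabidopsis turn tryptophan into indole-3-acetaldoxime).

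At time point B, 0 of the 6 passed the test for eCeT, eT or eC minus C or for warming, where 0.309%, 0.0179%, 0.00% and 0.0459% of all transcripts did. At an unadjusted p below 0.05 the counts were 1, 0, 0 and 0 of 6, where 10.3%, 7.26%, 6.51% and 7.46% of all transcripts lay below it. With voom weights limma called 0 in each at an adjusted p below 0.1. The share of all transcripts called with these weights is not given here, so those counts cannot be read as particular to the 6. The median difference of the 6 was 0.092 for eCeT, beside -0.023 for all transcripts, -0.46 for eT, beside -0.0077, and -0.25 for warming, beside 0.0036. The widest eCeT difference was that of c78858_g1, at 1.50 (SE 0.62; limma, adjusted p = 0.375). For c76852_g4 it was -0.45 (SE 0.56; limma, adjusted p = 0.834) and for c71466_g3 0.21 (SE 0.72; limma, adjusted p = 0.953).

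Between the time points, averaged over treatments, 3 of the 6 fell, where 19.9% of all transcripts did, and the other 3 did not pass. The transcript c78858_g1 was lower at time point B, with a difference of -2.38 (SE 0.31; limma, adjusted p = 8.16e-07) and c92299_g1 likewise, with -2.26 (SE 0.41; limma, adjusted p = 8.86e-05). The close match of c92038_g1, c76852_g4, was lower with a difference of -0.62 (SE 0.28; limma, adjusted p = 0.082). For c71466_g3 the difference was -0.74 (limma, adjusted p = 0.111), for c84097_g3 -0.72 (adjusted p = 0.147) and for c82144_g1 -0.38 (adjusted p = 0.337).

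**Figure D4:**
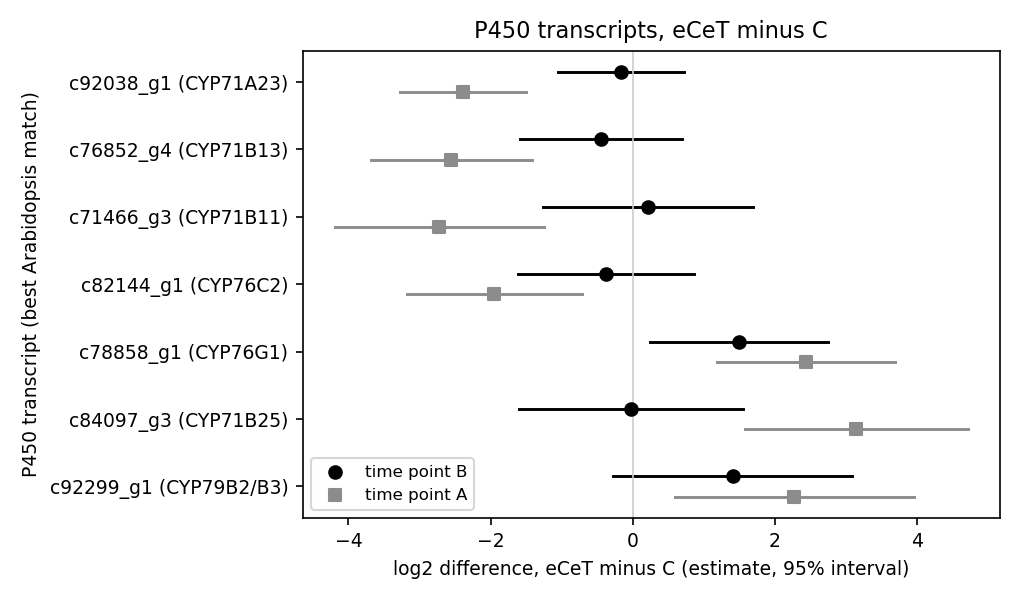
Log2 differences eCeT minus C with 95% intervals for c92038_g1 and the 6 other P450 transcripts, time point B as black circles and time point A as grey squares. At time point A 4 of the 7 lie below 0 and 3 above; at time point B c92038_g1 lies at -0.16 and the widest difference is 1.50 for c78858_g1.

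The level of c76852_g4, the P450 transcript most like c92038_g1, is given plot by plot. In eCeT plots its log2 level was -1.11, -1.50, 0.90 and -0.07 at time point B in rings 1 to 4 (5, 4, 21 and 7 reads), against 0.00, 0.35, -0.76 and 0.43 in C plots (13, 14, 5 and 15 reads). Ring 3 was the highest eCeT plot and the lowest C plot for both transcripts. At time point A it was -0.46, -0.04, -0.84 and -1.59 in eCeT plots (9, 11, 5 and 4 reads), against 2.27, 2.91, 0.65 and 1.46 in C plots (65, 119, 16 and 31 reads). Ring 2 was the highest and ring 3 the lowest C plot for both transcripts, whereas the eCeT plot of ring 4 was the highest for c92038_g1 and the lowest for c76852_g4. No eCeT plot reached a C plot. On the scale per length, c92038_g1 was the more abundant of the pair, with 4.30 FPKM in eCeT (n = 4) and 5.93 FPKM in C (n = 2) at time point B, against 0.799 FPKM in eCeT and 1.12 FPKM in C for c76852_g4.

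Likeness to c92038_g1 was ranked by Spearman's rho over the 32 libraries among 24535 transcripts with a mean of at least 10 reads per library. The points share treatments, time points and library scaling, so the values are a description with no test. The 5 most alike were c80798_g1, an aspartyl protease match (rho 0.912), c77834_g1, a match of the lignin methyltransferase OMT1 (0.904), c74478_g2 (0.895), c76208_g1 (0.894) and c91957_g3 (0.888). Of these, c80798_g1, c77834_g1 and c76208_g1 share with c92038_g1 a module that the study built by co-expression on the time point A libraries. Their high rho was therefore in part fixed by that choice. Among the P450 transcripts rho was 0.819 for c76852_g4, 0.731 for c71466_g3 and 0.713 for c82144_g1, and it was -0.218 for c78858_g1 and -0.133 for c92299_g1. Within the 16 libraries of time point B alone, rho was 0.791 for c76852_g4, 0.756 for c71466_g3 and 0.665 for c82144_g1, and it was -0.479 for c78858_g1 and 0.206 for c92299_g1. The 5 most alike there were other transcripts, c85814_g1 (0.906), c77423_g2 (0.903), c64380_g1 (0.879), c85199_g2 (0.871) and c96301_g2 (0.865), which have no name in the sources used here. In these libraries c77834_g1 had rank 26 (rho 0.797) and c76208_g1 rank 48 (rho 0.768).

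**Figure D5:**
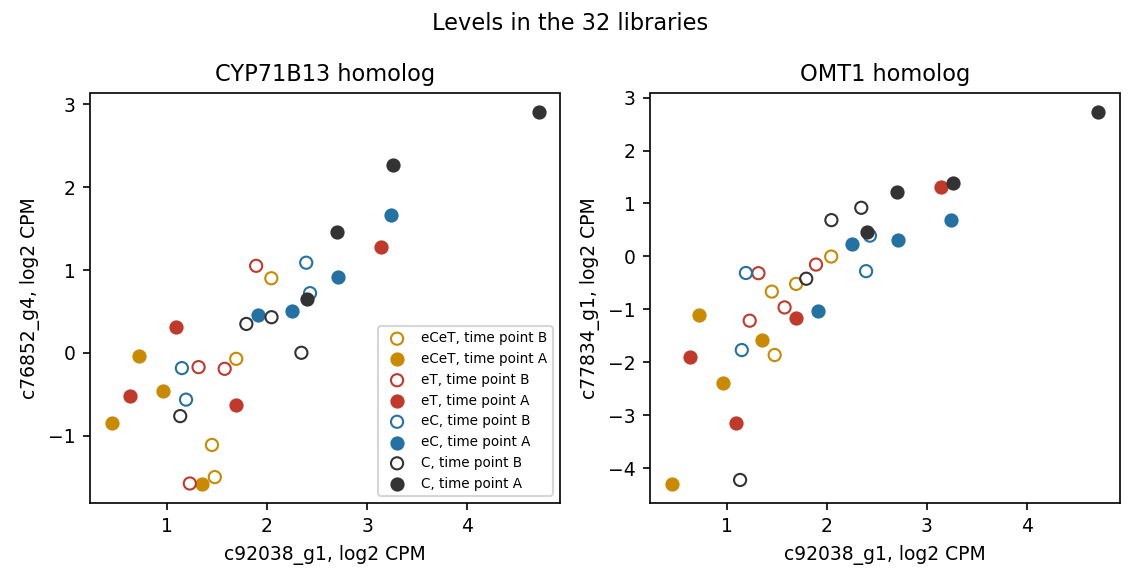
Log2 levels in the 32 libraries of c92038_g1 (horizontal axis) against c76852_g4 (left, rho 0.819) and c77834_g1 (right, rho 0.904), coloured by treatment, with open circles for time point B and filled circles for time point A. The C plot of ring 2 at time point A is the highest point in both panels.

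The study placed c92038_g1 in a co-expression module built from the time point A libraries and named 3 other transcripts of it beside c92038_g1. They are c86560_g1, a match of the receptor-like kinase CRK8, c76208_g1, a weak match of the mitogen-activated protein kinase kinase kinase ANP2, and c77834_g1, the match of OMT1, which methylates caffeic acid derivatives and flavonols in Arabidopsis. At time point B, 0 of the 3 passed the test in eCeT, eT or eC minus C or for warming. Over all transcripts the shares that passed were 0.309%, 0.0179%, 0.00% and 0.0459%. The eCeT differences were -0.52 for c86560_g1 (SE 0.53), -0.23 for c76208_g1 (SE 0.44) and -0.0019 for c77834_g1 (SE 0.86), with adjusted p = 0.789, 0.903 and 0.999 in limma. At an unadjusted p below 0.05 limma gave 1 of 3 for eT, where 7.26% of all transcripts lay below it. It gave 0 for eCeT, eC and warming, where 10.3%, 6.51% and 7.46% did. With voom weights 0 were called at an adjusted p below 0.1, but the share of all transcripts with these weights is not given here. At time point A, where they had been chosen, the differences were -1.77, -1.89 and -3.79. Averaged over treatments c76208_g1 was lower at time point B, with a difference of -0.49 (SE 0.22; limma, adjusted p = 0.081), and the others did not pass. Among all transcripts 19.9% were called lower in this comparison.

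The other 83 transcripts of that module that differed between eCeT and C in the study's list, among them c76852_g4, c71466_g3 and the 3 just named, had a median log2 difference of -0.44 for eCeT minus C at time point B, with 58 of 83 lower, beside a median of -0.023 over all transcripts. For warming the median was -0.35, with 68 of 83 lower, beside 0.0036. After adjustment over all transcripts, 0 of 83 were called lower and 1 higher for eCeT, where 0.0434% and 0.265% of all transcripts were, and 0 for eT, eC and warming. At an unadjusted p below 0.05 limma gave 11 of 83 for eCeT, 12 for eT, 6 for eC and 15 for warming, where 10.3%, 7.26%, 6.51% and 7.46% of all transcripts lay below it. With voom weights 0 were called in each at an adjusted p below 0.1, but the share of all transcripts with these weights is not given here. The transcript called higher was c67880_g1, an expressed protein of unnamed function, at 2.24 (SE 0.51; limma, adjusted p = 0.074); it was named after its values were seen. Since the list was picked for its difference at time point A, the shared sign is given as a count only.

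Pathogenesis-related and terpene synthase transcripts in the same annotation were followed as well. The 9 pathogenesis-related transcripts were matches of proteins of several kinds. Some matched beta-1,3-glucanases or a chitinase, kinds of enzyme that act on fungal cell walls. The rest matched osmotin, thaumatin, barwin-related or CAP superfamily proteins. At time point B, 0 of 9 passed the test in eCeT, eT or eC minus C or for warming. The shares of all transcripts that passed were 0.309%, 0.0179%, 0.00% and 0.0459%. For warming all 9 differences were negative, with a median of -0.58, beside 0.0036 for all transcripts. All 9 were also lower for eCeT minus C at time point A, where the study chose them. The shared sign is therefore given as a count only. At an unadjusted p below 0.05 limma gave 3 of 9 for warming and 1 for eT, where 7.46% and 7.26% of all transcripts lay below it. It gave 0 for eCeT and eC, where 10.3% and 6.51% did. With voom weights 0 were called at an adjusted p below 0.1, but the share of all transcripts with these weights is not given here. All 9 fell between the time points, averaged over treatments, where 19.9% of all transcripts did. The largest differences were -1.87 for c83775_g1 and -1.65 for c79266_g4, both beta-1,3-glucanase matches (SE 0.34 and 0.33), -1.83 for c93254_g1, a barwin-related match (SE 0.33), and -1.57 for c33882_g1, a weak thaumatin match (SE 0.27); limma gave them adjusted p = 9.36e-05, 0.000227, 7.70e-05 and 4.37e-05. Of 3 terpene synthase transcripts, 0 passed at time point B. There 0 had an unadjusted p below 0.05 in limma, beside the shares of all transcripts just given. With voom weights 0 had an adjusted p below 0.1, again without a share of all transcripts to set beside it. Between the time points 2 of the 3 fell. They were c87151_g1, with a difference of -1.57 (SE 0.31; limma, adjusted p = 0.000202), and c66962_g2, with -1.04 (SE 0.35; limma, adjusted p = 0.019), the last with at most 8 reads in any library. The study chose both lists on time point A libraries, which enter this comparison. The corresponding difference of c92038_g1 was -0.38 and did not pass; the gap to these transcripts was not tested.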

How the data were processed

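Leaf RNA was sequenced in 32 libraries (4 treatments, 2 time points, 4 plots each), and the label gave group and ring. The submitters' processing notes name CASAVA and bcl2fastq 1.8.4. Per the paper's methods, the authors assembled a transcriptome de novo, counted reads per transcript and used voom. The deposited log2 values of 39208 transcripts are named as TMM scaled in the deposit. The whole reads behind them were recovered from the lowest value of each library, and 100% of values up to 1000 reads lay within 0.02 of a whole number. The authors also deposited FPKM for 45073 transcripts; 3 of its 32 columns had contradictory headers and were not used. The pooled assembly library was not analysed here.

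One limma (3.58.1, R 4.3.3) model with 8 groups and a variance trend was fitted to all transcripts, with Benjamini-Hochberg adjustment and the threshold of 0.1 that the study used. Exact permutation tests ran over all arrangements in Python 3.11.15 with numpy 2.4.6, and the Poisson intervals used scipy 1.17.1. The fit was also run on simulated counts with a single fixed dispersion for all transcripts and no plot effects. That run does not cover unequal spread between groups or plots sampled at both time points. The plots are the replicates, and the tests set a difference against the spread between them. In limma that spread was shared over both time points and moderated over all transcripts, with the 32 libraries taken as independent. The same plot was sampled at both time points, and the correlation of the deviations of a plot's 2 libraries from their group means was -0.02 to 0.16 (median 0.05, 6 of 16 above 0.1). A fit with the plot as a random effect changed no call.

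The transcript named, and the lists set beside it, were chosen with earlier results of these data known. The named transcripts were the P450 matches, the 3 named with c92038_g1 in the study, at most 4 per defence list with the largest change among those passing the test, and the 5 most alike in each set of libraries. Alternatives were other scalings, read offsets, filters, units, weights, blocks and subsets of libraries.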

Additional observations from a re-analysis of the deposited data

Results flagged for a closer look

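In c92038_g1 all 4 eCeT plots were higher at time point B than at time point A, by 0.79 on average, whereas all 4 C plots were lower, by a mean of -1.44, and all 4 eC plots were lower, by a mean of -0.74. The eCeT mean of 0.79 thus stood against opposite changes in 2 other treatments; it was 0.39 in FPKM with a pseudocount of 1, and the eC mean was -0.31 without TMM scaling. The difference between the treatments was not tested, since the time point A libraries had a part in the choice of the transcript.

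For 10 transcripts, c92038_g1, the other P450 transcripts and the 3 named with it, the highest and lowest plot of each of 80 groups of 4 was set against Dixon's 95% critical value, which chance passes in about 1 in 20 groups. In 2 groups a plot stood apart, and none of them was a group of c92038_g1. The transcript c71466_g3 was at -4.30 in the eCeT plot of ring 3 at time point A, where it had 0 reads, with the nearest plot at -0.36. The transcript c78858_g1 was at -2.84 in the eC plot of ring 2 at time point B, where it had 2 reads, with the nearest plot at -0.83.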

How the results depend on the processing

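The 7 tested differences of c92038_g1 were recomputed under 15 other settings and with each of the 32 libraries left out, where a setting applied, and 307 of 324 values kept direction and side of the threshold. No treatment difference at time point B passed under any of them (lowest adjusted p 0.704). The eC difference changed sign to 0.037 with quantile normalization, 0.075 with median centring and 0.29 without TMM scaling, the CO2 difference to -0.11 and -0.14 in FPKM with pseudocounts of 1 and 0.1, and the interaction to -0.25 without TMM scaling. Leaving out 1 library gave -0.39 to 0.0087 for eCeT (positive only without C replicate 1 at time point B), -0.56 to -0.15 for eT, -0.27 to 0.18 for eC, -0.34 to -0.12 for warming, -0.054 to 0.17 for CO2, -0.013 to 0.43 for the interaction and -0.46 to -0.25 for the change between time points, which passed only without eT replicate 4 at time point A. The described eCeT difference at time point A ranged over -2.68 to -1.91 with 1 library left out and -2.52 to -2.18 otherwise. Leaving out TMM scaling moved the median of all transcripts by 0.33 for eC and -0.45 for the interaction at time point B, by 0.62 for the interaction at time point A and by 0.43 for the time change in eC. The 1 listed transcript called at time point B was 0 without TMM scaling, with 5 reads added, with voom weights, in FPKM with either pseudocount, without the variance trend and with only the libraries of the time point or of the groups compared, and 0 to 1 with 1 library left out. Deviations of plots of the same ring had correlations of -0.12 to 0.13 at time point A (2 of 24 above 0.1, 12 of 24 best with their own ring) and -0.08 to 0.22 at time point B (12 and 14 of 24), a hint of pairing at time point B that not every pair showed; with the ring as replicate block the time change of -0.38 had an adjusted p of 0.130 in limma and eCeT minus C at time point B of 0.919, and no call changed. Counts of 9 to 417 reads limit the precision.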
